A study of Mus musculus with 19 samples.

Results

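The genes described here encode the respiratory chain and ATP synthase of mitochondria and lie in the nuclear genome. They were taken as all genes of the 2 deposited tables whose symbol starts with Nduf, Uqcr or Atp5, or with Cox followed by 4 to 8, together with Sdha, Sdhb, Sdhc, Sdhd and Cyc1. This rule finds 91 of the 16259 genes listed in either table. Of these, 85 are among the 14290 genes of the table of stimulated cells, and 81 reached at least 1 RPKM (read numbers divided by gene length and by the size of the library) in at least 2 libraries there. In the table of freshly sorted cells 89 of 14818 genes follow the rule, and 88 reached that level. The rule used symbols and a minimum level, and no difference between groups. The kept genes are 7 core subunits, 28 accessory subunits and 4 assembly factors of complex I, the 4 subunits of complex II, 8 genes of complex III, 13 of complex IV and 15 of complex V in the stimulated set. Atp5s and Atp5sl follow the rule by symbol but encode no subunit, and were counted apart. No mitochondrially encoded subunit is listed in either table, so the other genome's share of the chain was not analysed here.

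RNA was sequenced from regulatory T cells (Tregs), which hold back other immune cells, in 19 libraries of 9 groups. All mice were C57Bl/6 Foxp3-CRE-YFP, in which the Foxp3 gene drives Cre recombinase and a yellow fluorescent protein, and YFP-positive cells were taken. The stimulated set held wild-type (WT) Tregs given pentoxifylline at 500 ug/mL (2 libraries), Tregs of c-Rel F/F mice, called c-Rel-deficient here (2), and WT Tregs given water (2). The c-Rel-deficient libraries of this set are titled c-Rel-/- Treg. Pentoxifylline (PTXF) is a phosphodiesterase inhibitor. These cells were cultured for 16 h on plate-bound anti-CD3 (5 ug/mL) with IL-2 (10 ng/mL) and anti-CD28 (1 ug/mL), and the labels do not say whether the c-Rel-deficient cells were given water. The sorted set held untreated Tregs of spleen and lymph nodes, whose RNA was extracted directly after the sort. They were divided into activated cells (aTreg, CD44 high) and resting cells (rTreg, CD44 low). It had 2 aTreg libraries labelled p65-deficient (p65 F/F), 2 c-Rel-deficient aTreg, 3 WT aTreg, 2 rTreg libraries labelled p65-deficient, 2 c-Rel-deficient rTreg and 2 WT rTreg libraries. p65, encoded by Rela, and c-Rel, encoded by Rel, are transcription factor subunits of NF-kB. The labels do not say whether replicates are separate animals, so a p-value here measures the spread between these samples, which may be technical. In the stimulated WT groups that spread also includes the difference in the sex-linked Xist given below.

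The respiratory chain passes electrons from NADH through complex I, and from succinate through complex II, to complex III, then to cytochrome c and complex IV, where oxygen is reduced. Complexes I, III and IV pump protons, and complex V, the ATP synthase, uses the resulting gradient to make ATP. Most subunits are encoded in the nucleus and imported, and they are assembled with a small set of subunits made inside the mitochondrion. Tregs rely on oxidative phosphorylation more than conventional effector T cells do, and loss of complex III function in Tregs is known to impair suppression in mice.

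Several features of the libraries bear on the values below. Rel was 2.44 and 25.0 RPKM in the stimulated c-Rel-deficient libraries, 93.5 and 79.9 RPKM with PTXF and 55.1 and 55.8 RPKM with water, so the c-Rel-deficient pair was uneven. The sex-linked Xist was 0.00965 and 22.3 RPKM in the PTXF libraries, 0.0111 and 0.0209 RPKM in the c-Rel-deficient libraries and 0.0153 and 18.7 RPKM with water, so replicates 1 and 2 of both WT groups differ. Relative to water replicate 1, depth read from steps between low values was 0.792 and 0.681 with PTXF, 0.914 and 0.852 without c-Rel and 0.947 in water replicate 2. Depth of the sorted libraries is unknown, and their RPKM were adjusted in a way that no label describes (2.53% of values lie below 0). Treg markers summed to between 1548 and 2332 RPKM in stimulated libraries and between 831 and 1326 RPKM in sorted libraries. The 6 B cell markers summed to at most 10.2 and 29.4 RPKM in these sets, the 5 listed myeloid markers to at most 3.94 and 5.54 RPKM, the CD8 T cell markers to at most 15.2 and 22.1 RPKM and the erythroid markers to at most 0.453 and 7.01 RPKM. NK and cytotoxic markers summed to at most 6.90 RPKM in stimulated libraries and reached 31.8 RPKM in a c-Rel-deficient aTreg library. The plasma cell list summed to at most 172 and 87.3 RPKM, of which Xbp1, which T cells also express, gave at least 107 and 60.3 RPKM.

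Respiratory chain transcripts were abundant in stimulated Tregs. Atp5b, the catalytic beta subunit of ATP synthase, averaged 704 RPKM over the 6 libraries and ranked 39 among the 9945 genes tested. Atp5a1, the alpha subunit, averaged 430.1 RPKM, and Cox4i1, the main form of complex IV subunit 4, averaged 427 RPKM. The median over kept genes was 134 RPKM for complex V, 169 RPKM for complex IV, 121 RPKM for complex III, 91.4 RPKM for complex II, 64.9 RPKM for accessory and 64.3 RPKM for core subunits of complex I, and 12.5 RPKM for its assembly factors. Isoforms known from other tissues were near absent. Cox4i2, the lung form of subunit 4, was at most 0.369 RPKM, and Ndufa4l2, a hypoxia-induced relative of Ndufa4, was at most 0.104 RPKM. The muscle forms Cox7a1 and Cox6a2 stood at 1.26 and 6.82 RPKM in PTXF replicate 1 but at most 0.999 and 0.407 RPKM in the other 5 libraries. These 4 genes did not pass the minimum level and were not tested.

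PTXF-treated Tregs had lower levels of genes from each of the 5 complexes than water-treated Tregs. In complex II the calls given below depended on single libraries. Of the 81 genes, 48 fell and 3 rose in limma at a Benjamini-Hochberg adjusted p under 0.05, where 23.9% of all 9945 genes tested fell and 19.6% rose. The median log2 difference was -0.65 over the 81 genes and 0.00 over all genes tested, and 72 of the 81 lay below 0. In 62 genes both PTXF libraries lay below both water libraries, which held for 38.3% of all genes. In 5 genes both lay above, against 37.2% of all genes. The summed RPKM of the 85 genes in the table made up 1.72 ± 0.116% of all RPKM with PTXF and 2.47 ± 0.321% with water (SD, n = 2 each). In bulk RNA, fewer cells of a type and less RNA per cell cannot be told apart. The 6 Treg markers summed to between 1595 and 1957 RPKM with PTXF and between 2225 and 2332 RPKM with water, and the part of this shift in the result was not tested. Many of the respiratory chain genes have short transcripts. Over other genes with transcripts under 1000 bases the median log2 difference was -0.16, and 512 of 1666 fell.

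**Figure D1:**
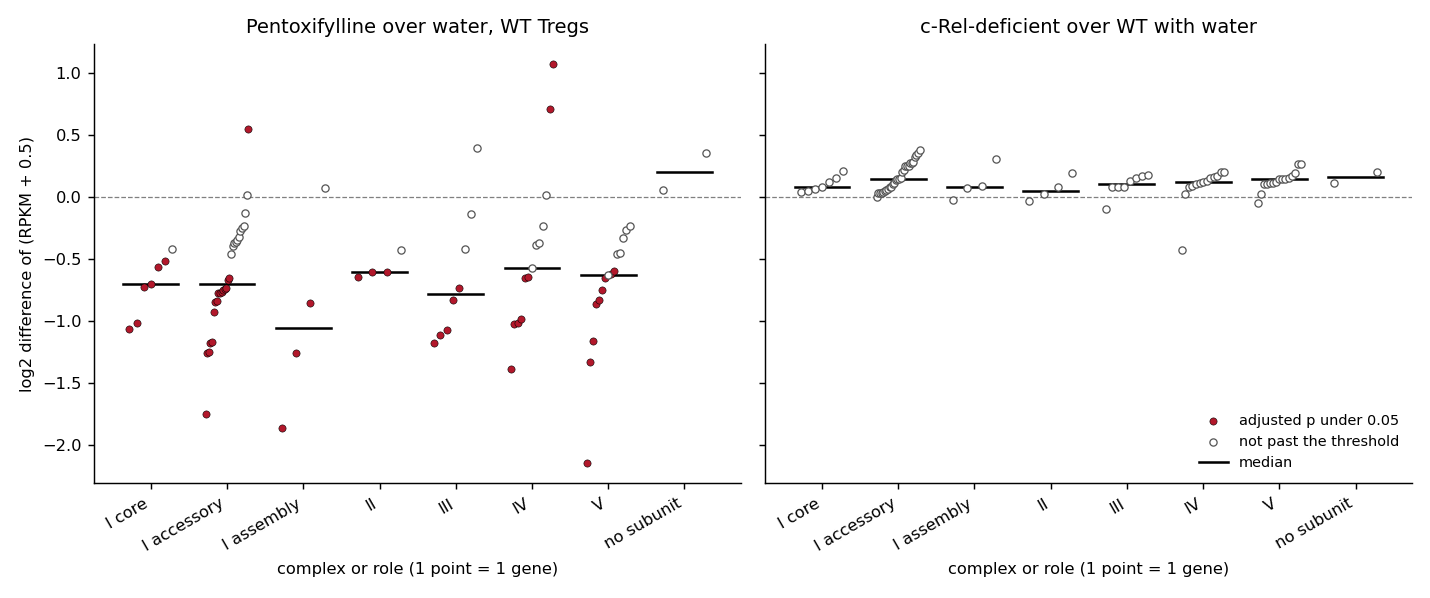
Log2 differences of PTXF against water in stimulated WT Tregs for each of the 81 genes, in 1 column per complex or role. Each point is a gene, filled where limma gave an adjusted p under 0.05, and the bar is the median of the column. Most points lie below 0 in every complex, and the medians of the subunit columns run from -0.78 to -0.57.

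In complex I, which oxidises NADH, 6 of 7 core subunits, 16 of 28 accessory subunits and 3 of 4 assembly factors fell, and 1 accessory subunit rose. Median log2 differences were -0.70 in core and in accessory subunits and -1.06 in assembly factors. Ndufaf4, an assembly factor of complex I, was 2.05 and 3.04 RPKM with PTXF, 13.8 and 12.2 RPKM without c-Rel and 10.1 and 10.8 RPKM with water. Both PTXF libraries lay far below the other 4. Its log2 difference against water was -1.86 (SE 0.20, limma, Benjamini-Hochberg adjusted p = 0.000824), or 0.275 times the level in water. Ndufaf2, another assembly factor, was 6.10 and 7.49 RPKM with PTXF against 16.3 and 17.6 RPKM with water, and fell by 1.26 on the log2 scale. Ndufaf3 did not pass the test (log2 difference 0.07).

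Among accessory subunits the largest fall was in Ndufa12, a subunit of the peripheral arm. It was 9.66 and 11.6 RPKM with PTXF, 44.2 and 43.2 RPKM without c-Rel and 31.0 and 43.3 RPKM with water. The groups did not overlap, and the log2 difference against water was -1.75 (SE 0.18, limma adjusted p = 0.000815). Ndufs1, the core subunit that holds iron-sulfur clusters of the NADH-oxidising arm, was 17.6 and 17.4 RPKM with PTXF against 28.1 and 29.3 RPKM with water. This was a smaller fall with tight replicates, with a log2 difference of -0.70 (SE 0.12, limma adjusted p = 0.00404). Ndufv1, which binds NADH and the flavin, was 50.3 and 52.4 RPKM with PTXF against 59.2 and 80.4 RPKM with water. Its libraries did not overlap, but it did not pass the test (log2 difference -0.42, limma adjusted p = 0.0817). Ndufa6, an accessory subunit of the matrix arm, went the other way, with 249 and 226 RPKM with PTXF against 150.1 and 175 RPKM with water. It rose by 0.55 on the log2 scale (SE 0.16, limma adjusted p = 0.0263). This rise ran from 0.44 to 0.66 as single libraries were left out, and the call did not hold in every setting.

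Complex II, succinate dehydrogenase, also works in the TCA cycle and has no mitochondrially encoded subunit. Sdhb, its iron-sulfur subunit, was 82.7 and 96.4 RPKM with PTXF and 121 and 161 RPKM with water (log2 difference -0.65, SE 0.18, limma adjusted p = 0.0224). The membrane anchors Sdhc and Sdhd both had a log2 difference of -0.60, with limma adjusted p-values of 0.0449 and 0.0341. As single libraries were left out, log2 differences ran from -0.85 to -0.44 in Sdhb, -0.81 to -0.39 in Sdhc and -0.84 to -0.37 in Sdhd. The calls of these genes did not hold in every such fit. Sdha, the flavoprotein that binds succinate, was 79.4 and 90.6 RPKM with PTXF and 102 and 129 RPKM with water. In all 4 genes both PTXF libraries lay below both water libraries, but Sdha did not pass the test (log2 difference -0.43, limma adjusted p = 0.0697).

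In complex III, which hands electrons from ubiquinol to cytochrome c, 5 of 8 genes fell, with a median log2 difference of -0.78. Cyc1, cytochrome c1, was 62.7 and 61.9 RPKM with PTXF, 165 and 136 RPKM without c-Rel and 115 and 159 RPKM with water. The PTXF libraries were nearly equal and below all others, and Cyc1 fell to 0.463 times the level in water (log2 difference -1.11, SE 0.19, limma adjusted p = 0.00385). Uqcrc1, a core protein of the matrix side, fell by 0.83 on the log2 scale (limma adjusted p = 0.017). Uqcrfs1, the Rieske iron-sulfur protein of the same complex, was 107 and 105 RPKM with PTXF and 104 and 131 RPKM with water. Its groups overlapped (log2 difference -0.14, limma adjusted p = 0.497). Uqcrh, the hinge protein, was higher in both PTXF libraries, at 336 and 342 RPKM against 235 and 281 RPKM with water, but did not pass the test (limma adjusted p = 0.084).

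Complex IV was divided. Of its 13 genes 6 fell and 2 rose, and the median log2 difference was -0.57. Cox5a, a subunit of the matrix side, was 107 and 133 RPKM with PTXF and 199 and 294 RPKM with water (log2 difference -1.02, SE 0.22, limma adjusted p = 0.0092). Cox7b, a small membrane subunit, was 40.8 and 52.9 RPKM with PTXF and 99.0 and 152 RPKM with water, and fell by 1.39 (SE 0.23, limma adjusted p = 0.00325). Ndufa4, named as a complex I subunit but found in complex IV, fell by 1.02 (limma adjusted p = 0.0102). Cox4i1 did not pass the test, at 401 and 435 RPKM with PTXF, 479 and 409 RPKM without c-Rel and 344 and 495 RPKM with water. Its log2 difference of 0.02 lay well within the replicate spread (SE 0.22, limma adjusted p = 0.954). Cox6a1 and Cox8a, the ubiquitous forms of subunits 6a and 8, had log2 differences of -0.39 and -0.37 and did not pass the test (limma adjusted p = 0.16 and 0.201).

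The rises in complex IV were those of Cox7a2l and Cox7c. Cox7a2l, also called SCAF1, joins complexes III and IV into supercomplexes, and C57BL/6 mice carry a shorter form of the protein. It was 268 and 251 RPKM with PTXF, 128 and 123 RPKM without c-Rel and 117 and 129 RPKM with water. The PTXF pair stood apart from the 4 other libraries, which lay close together, at 2.10 times the level in water (log2 difference 1.07, SE 0.14, limma adjusted p = 0.00152). Its relative Cox7a2, the common form of subunit 7a, fell instead, at 45.5 and 67.3 RPKM with PTXF against 87.0 and 138 RPKM with water (log2 difference -0.98, SE 0.26, limma adjusted p = 0.0202). The log2 difference of Cox7a2 ran from -1.31 to -0.65 as single libraries were left out, and its call did not hold in every setting. The ratio of Cox7a2l to Cox7a2 was 5.88 and 3.73 in PTXF libraries, 0.993 and 1.04 in c-Rel-deficient libraries and 1.35 and 0.935 in water libraries. In the sorted libraries this ratio ran from 2.50 to 6.67, on values that were processed separately. Cox7c, a small subunit with near-identical copies elsewhere in the genome, was 32.1 and 23.1 RPKM with PTXF and 17.4 and 15.7 RPKM with water (log2 difference 0.71, SE 0.19, limma adjusted p = 0.0216). That difference ran from 0.47 to 0.94 as single libraries were left out, and the call did not hold in every setting.

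In complex V all 15 genes had a difference below 0 and 9 fell, with a median log2 difference of -0.63. Atp5g1, Atp5g2 and Atp5g3 encode the same mature subunit c of the rotor ring with different import sequences. Atp5g1 had the largest fall of all 81 genes, at 6.44 and 9.66 RPKM with PTXF, 44.7 and 43.8 RPKM without c-Rel and 29.3 and 45.9 RPKM with water. No PTXF library came near the others (log2 difference -2.15, SE 0.25, limma adjusted p = 0.0011, 0.226 times the level in water). Atp5g3 fell less, at 155 and 184 RPKM with PTXF and 314 and 454 RPKM with water (log2 difference -1.16, SE 0.22, limma adjusted p = 0.00533). Atp5g2 was low throughout this set, between 1.55 and 3.11 RPKM, and did not pass the test. Atp5g1 thus made up 3.94 and 4.94% of the summed RPKM of the 3 genes with PTXF, 9.17 and 9.59% without c-Rel and 8.47 and 9.14% with water. These shares are uncertain, because Atp5g1 has 1 and Atp5g2 has 2 near-identical copies elsewhere in the genome.

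Other parts of ATP synthase showed falls of different size. Atp5k, subunit e at the dimer interface, was 55.8 and 70.7 RPKM with PTXF and 128 and 198 RPKM with water (log2 difference -1.33, SE 0.23, limma adjusted p = 0.00395). Atp5a1 fell by 0.83 on the log2 scale (limma adjusted p = 0.0176). Atp5b, the most abundant of the nuclear genes described here, was 502 and 472 RPKM with PTXF, 923 and 802 RPKM without c-Rel and 643 and 879 RPKM with water. Its groups did not overlap, yet it did not pass the test (log2 difference -0.63, SE 0.23, limma adjusted p = 0.057).

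**Figure D2:**
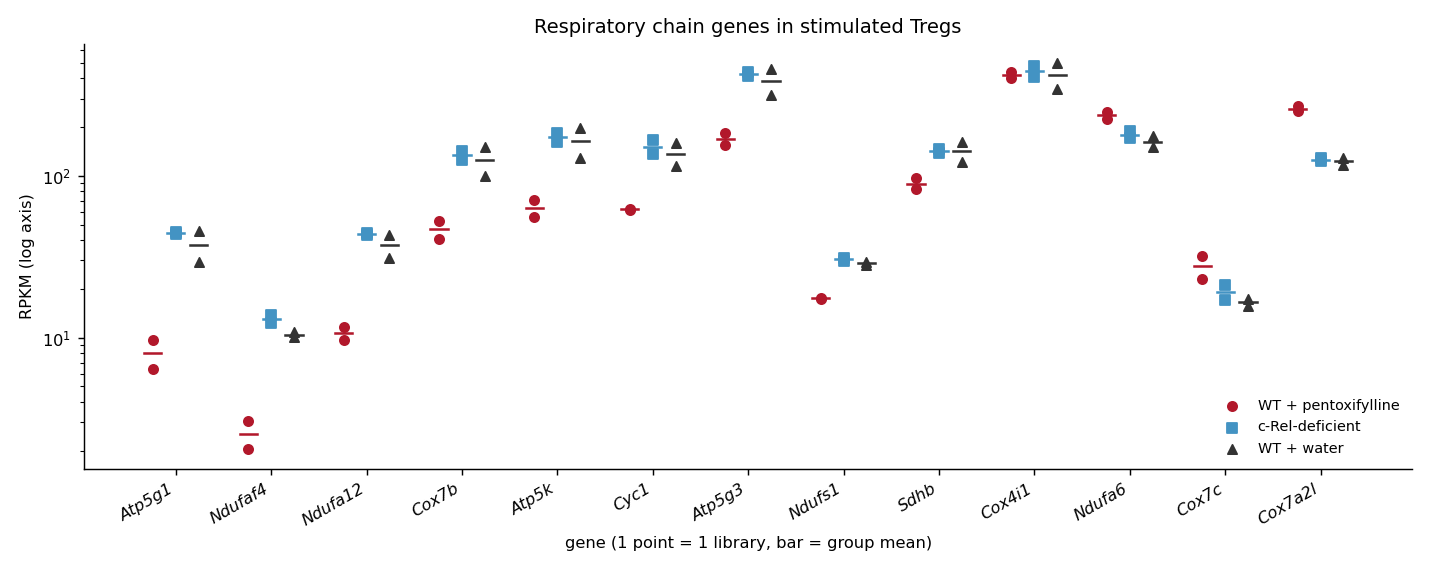
RPKM on a log axis in each of the 6 stimulated libraries for 13 genes of the chain, with PTXF, c-Rel-deficient and water libraries from left to right. Each point is a library and each bar a group mean. PTXF points lie lowest for Atp5g1 (6.44 and 9.66 RPKM) and Ndufaf4 (2.05 and 3.04 RPKM), highest for Cox7a2l (268 and 251 RPKM), and among the others for Cox4i1.

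Sequences upstream of 3 genes are shown because these genes mark the extremes of the drug comparison: the largest fall of a subunit, the largest fall of an assembly factor and the largest rise. Each runs from 250 bases before to 50 bases after the start of the gene in RefSeq (GRCm38.p6). The windows are chr11:96075582-96075881 on the minus strand for Atp5g1, chr4:24897833-24898132 on the plus strand for Ndufaf4 and chr17:83514284-83514583 on the minus strand for Cox7a2l. Capitals mark a match to one of 5 motifs searched on both strands: NRF-1 (GCGCA, any base, GCGC), ETS (CCGGAAG), E-box (CACGTG), CRE (TGACGTCA) and kappaB (GGGA, any 2 bases, TTCC). The window of Atp5g1 holds an E-box, that of Ndufaf4 an NRF-1 match, and that of Cox7a2l none of these letters.
Atp5g1: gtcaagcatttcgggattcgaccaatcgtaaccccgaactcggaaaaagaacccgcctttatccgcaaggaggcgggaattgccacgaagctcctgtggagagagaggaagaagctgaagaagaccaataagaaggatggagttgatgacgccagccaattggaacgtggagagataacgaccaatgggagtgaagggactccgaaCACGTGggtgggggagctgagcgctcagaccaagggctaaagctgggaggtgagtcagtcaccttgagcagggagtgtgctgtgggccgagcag
Ndufaf4: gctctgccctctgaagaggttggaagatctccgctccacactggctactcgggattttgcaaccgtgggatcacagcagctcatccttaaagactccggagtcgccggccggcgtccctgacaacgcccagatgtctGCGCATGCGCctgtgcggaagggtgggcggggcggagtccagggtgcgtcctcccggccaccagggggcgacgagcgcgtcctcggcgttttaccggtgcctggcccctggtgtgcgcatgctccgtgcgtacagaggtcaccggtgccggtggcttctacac
Cox7a2l: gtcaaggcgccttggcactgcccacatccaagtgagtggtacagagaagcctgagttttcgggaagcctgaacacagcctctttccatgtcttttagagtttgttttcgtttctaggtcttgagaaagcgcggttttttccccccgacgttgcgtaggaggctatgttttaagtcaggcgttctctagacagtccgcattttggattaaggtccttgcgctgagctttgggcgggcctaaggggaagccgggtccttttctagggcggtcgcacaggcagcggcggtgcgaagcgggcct
Such windows were available for 75 of the 91 genes. NRF-1, named for a factor that drives many nuclear genes of mitochondria, was matched in 18 of the 75 (24%) and in 4.78% of 27025 promoters of the same length. It was matched in 10 of 40 windows of genes that fell with PTXF (25%) and in 6 of 29 windows of the other genes tested (20.7%). ETS, bound by the GABP factor, was matched in 22.7% of the 75 and in 9.12% of all promoters. The CRE letters were found in 4 of the 75 (5.33%) against 1.88%, the E-box in 7 (9.33%) against 7.24% and the kappaB letters in 1 (1.33%) against 1.43%. In the 40 windows of genes that fell and the 29 others, ETS was matched in 10 and 6 and CRE in 3 and 1. The E-box was matched in 3 and 4 of these and kappaB in 1 and 0. A match describes letters only and says nothing of binding.

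The count of falls depended on single libraries, while the sign of the median did not. Without PTXF replicate 1, or without water replicate 2, 18 genes fell in each case, against 43 without PTXF replicate 2 and 59 without water replicate 1. All genes tested moved as well, with 15.5%, 13.3%, 20.9% and 21.2% falling under these settings. The median log2 difference of the 81 genes stayed between -0.85 and -0.44. Genes that fell under each of the 4 settings were Ndufa5, Ndufa12, Ndufab1, Ndufb2, Ndufb6, Ndufb8, Ndufs1, Ndufaf2 and Ndufaf4 of complex I. The others were Cyc1, Uqcr11 and Uqcrq of complex III, Cox7b of complex IV, and Atp5g1, Atp5g3 and Atp5k of complex V. No gene of complex II was among them. The share of all genes tested that fell under each of the 4 settings is not given here. Cox7a2l rose under each of the 4 settings. Within replicate number 1 Xist is near 0 in both WT libraries. The median log2 difference of PTXF against water there was -0.55 over the 81 genes and -0.002 over all genes. Of the 81 genes 70 lay below 0. Within number 2 the medians were -0.74 and -0.005, with 75 of 81 below 0. The authors' deposited table, after Benjamini-Hochberg adjustment of its p-values, has 44 of the 81 lower and 1 higher, where 12.9% and 9.77% of all its genes are lower and higher. Reads of 22 of the 91 genes could be shared with near-identical copies, among them Atp5g1, Ndufa12, Cox7b and Atp5k, whose values are uncertain for that reason. Of genes with such copies 13 of 20 fell, and of those without 35 of 60.

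Other mitochondrial genes of the drug comparison were read from lists. Their counts are to be read beside the shares of all genes tested that fell and rose with PTXF, given above. Of 76 mitochondrial ribosomal protein genes, which make the subunits encoded in mitochondria, 62 fell and 1 rose, with a median log2 difference of -0.90. Of 17 TCA cycle genes 11 fell and none rose (median -0.50). Fh1, fumarase, fell by 1.55 and Idh3a, a subunit of isocitrate dehydrogenase, by 1.48 on the log2 scale (limma adjusted p = 0.00154 and 0.000733), while Cs, citrate synthase, did not pass the test (log2 difference 0.05). Of 26 electron carrier and assembly genes 12 fell (median -0.42), led by Coq7 of ubiquinone synthesis and Lrpprc, which stabilises mitochondrial mRNAs, with log2 differences of -2.60 and -2.15. Of 13 regulators of mitochondrial biogenesis 7 fell and 2 rose. Myc was 25.4 and 47.2 RPKM with PTXF, 271 and 210 RPKM without c-Rel and 157 and 219 RPKM with water, and fell by 2.40 (limma adjusted p = 0.00141). Pprc1, a coactivator of the PGC-1 family, was 10.0 and 9.62 RPKM with PTXF against 36.1 and 37.4 RPKM with water, and fell by 1.85. The transcription factors Nrf1, Gabpa and Esrra had log2 differences of 0.11, -0.14 and -0.16 and did not pass the test.

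**Figure D3:**
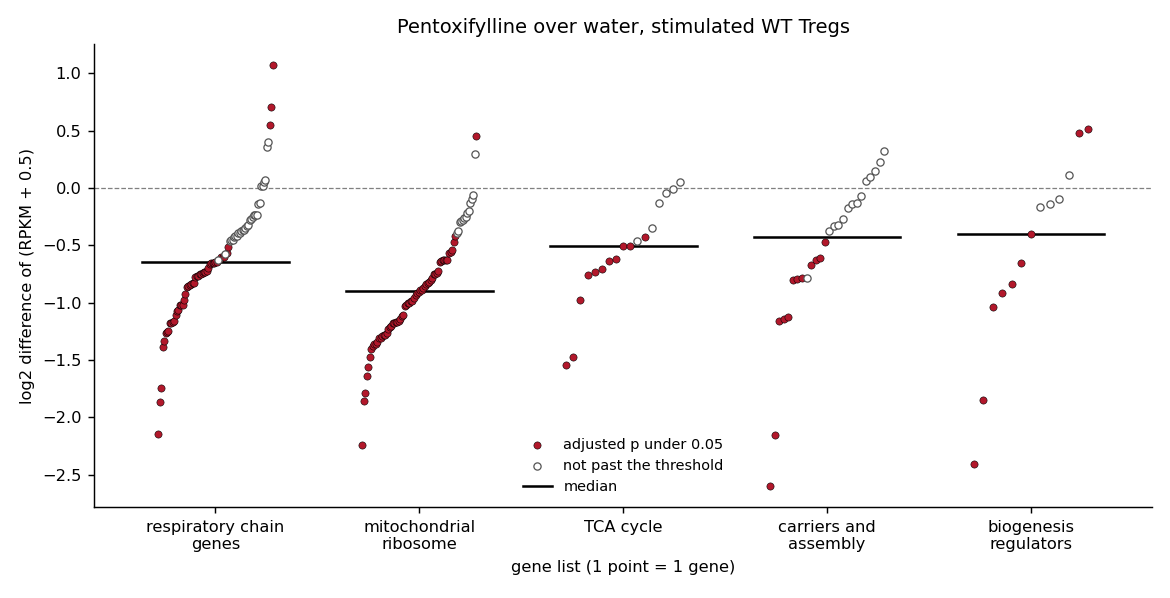
Log2 differences of PTXF against water for the respiratory chain genes and 4 lists of other mitochondrial genes. Each point is a gene, filled where limma gave an adjusted p under 0.05, and bars are medians, which run from -0.90 for mitochondrial ribosomal proteins to -0.41 for biogenesis regulators.

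Loss of c-Rel was set against the same water libraries. In limma 0 of 81 respiratory chain genes passed an adjusted p of 0.05, 0 had an unadjusted p under 0.05, and 0 were called in the authors' deposited table (all its genes: 0.482% higher and 1.66% lower). Over all 9945 genes tested 0% passed, and unadjusted p-values under 0.05 were found for 2.95% on the higher and 5.01% on the lower side. Rel itself thus did not pass, so a count of 0 here does not exclude differences in these genes. A median log2 difference of 0.12 was found over the 81 genes and 0.06 over all genes, and the genes ranged from -0.42 to 0.38. In 12 genes both c-Rel-deficient libraries lay above both water libraries, against 24.2% of all genes, and in 0 genes below, against 16.3% of all genes. Ndufaf4, for example, had a log2 difference of 0.30 and Atp5g1 one of 0.27, neither past the test. The sign rested on a water library: without water replicate 1 the median was -0.07, and without water replicate 2 it was 0.34. Without c-Rel-deficient replicate 2, the library with more Rel, it was 0.18. Xist was 0.0153 RPKM in water replicate 1 and 18.7 RPKM in water replicate 2, but at most 0.0209 RPKM without c-Rel. The part of this sex-linked difference in the result was not tested. In the 4 lists of other mitochondrial genes 0 genes passed.

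PTXF was also set directly against loss of c-Rel, a comparison that shares the PTXF libraries with the first. Xist differs here too, at 0.00965 and 22.3 RPKM with PTXF and at most 0.0209 RPKM without c-Rel, and its part was not tested. Here 55 of 81 genes were lower with PTXF and 1 was higher, where 26.8% of all genes were lower and 21.6% higher. Over the 81 genes the median was -0.77. The largest were Atp5g1 at -2.41, Ndufaf4 at -2.17, Ndufa12 at -1.99, Ndufb2 at -1.61 and Ndufa5 at -1.53. All 4 genes of complex II passed here, but none of these 4 calls held without PTXF replicate 1 or without c-Rel-deficient replicate 1. Cox7a2l was the gene that was higher, at 268 and 251 RPKM with PTXF against 128 and 123 RPKM without c-Rel (log2 difference 1.05, limma adjusted p = 0.0012). Without PTXF replicate 1 the number of lower genes was 30 (19.2% of all genes), without c-Rel-deficient replicate 1 it was 37 (19.6%), without c-Rel-deficient replicate 2 it was 44 (22%) and without PTXF replicate 2 it was 49 (23.5%). A part of these genes was lower whichever of the 4 libraries was left out, and the matching share of all genes tested is not given here.

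**Figure D4:**
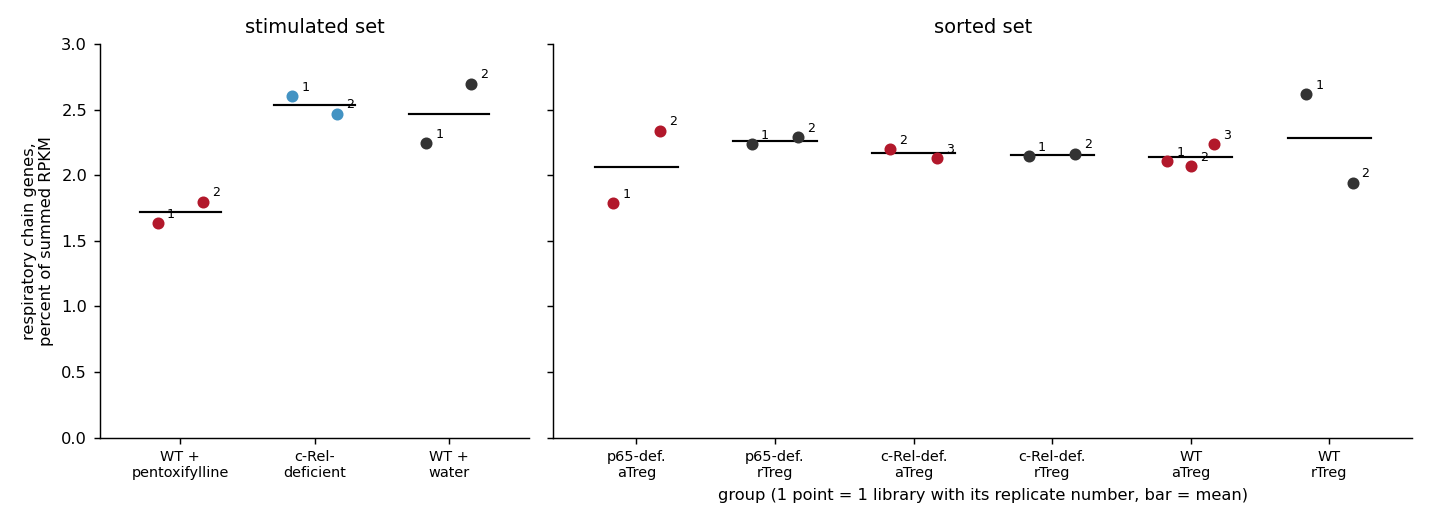
Percent of the summed RPKM of each library held by the respiratory chain genes, in all 19 libraries by group. Each point is a library with its replicate number, each bar a mean, and the 2 sets were normalised separately. The PTXF libraries (1.63 and 1.80%) lie below the other stimulated libraries (2.24 to 2.70%), and the sorted libraries run from 1.79 to 2.62% with the widest spread in WT rTregs and in aTregs labelled p65-deficient.

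In freshly sorted Tregs the order of levels was similar at the top. Atp5b averaged 573 RPKM over the 13 libraries and ranked 64 among 10656 genes tested, followed by Cox4i1 at 339 RPKM, Atp5g3 at 287 RPKM, Atp5a1 at 286 RPKM and Cox7a2l at 270.2 RPKM. Some genes stood at quite different levels in the 2 sets, which were normalised separately and can only be set side by side. Atp5g2, Atp5l and Ndufb4 averaged 2.39, 3.60 and 2.82 RPKM in stimulated libraries and 131, 106 and 37.6 RPKM in sorted libraries. Atp5k and Atp5j2 went the other way, at 133 and 145 RPKM in stimulated and 25.7 and 20.5 RPKM in sorted libraries. These were the 5 of 81 genes more than 4-fold apart, and several of them have near-identical copies (8 for Atp5l, 2 for Atp5g2). Whether the tables differ in how such reads were counted was not tested.

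aTregs were compared with rTregs within WT. Of 88 genes 1 fell and 0 rose in limma, where 4.68% of the 10656 genes tested fell and 7.54% rose. The gene was Ndufaf4, which was 4.79, 5.37 and 5.93 RPKM in WT aTregs and 9.92 and 7.56 RPKM in WT rTregs. All 3 aTreg libraries lay below both rTreg libraries (log2 difference -0.65, SE 0.15, limma adjusted p = 0.0293). It is also the 1 gene of the 88 called in the authors' deposited table, lower (adjusted p = 0.0107), where 3.25% of all its genes are lower and 7.99% higher. Ndufaf4 was 5.46 and 5.60 RPKM in aTregs and 7.28 and 8.10 RPKM in rTregs labelled p65-deficient, and 5.71 and 7.47 RPKM in c-Rel-deficient aTregs and 8.06 and 8.99 RPKM in c-Rel-deficient rTregs. The log2 differences of -0.44 and -0.36 there did not pass the test, and every aTreg library of a genotype still lay below its rTreg libraries. The call was lost without WT rTreg replicate 1, without WT aTreg replicate 1 or 2, and in a fit of the 5 WT libraries alone (adjusted p = 0.117). Its log2 difference ran from -0.84 to -0.46 as single libraries were left out.

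The other genes of the chain did not pass, and their differences turned on which WT rTreg library was used. The median log2 difference of aTregs against rTregs was -0.26 over the 88 genes, -0.06 over all genes and -0.17 over other genes with short transcripts, with 84 of 88 below 0. WT rTreg replicate 1 lay above the median of the 13 libraries in 88 of 88 genes, by a median of 0.50 on the log2 scale. WT rTreg replicate 2 lay below that median by a median of 0.16 (-0.16). Ndufa1, a small subunit of the membrane arm of complex I, shows the gap, with 104, 106 and 113 RPKM in WT aTregs and 207 and 94.1 RPKM in WT rTregs. Without WT rTreg replicate 1 the median difference was 0.07 with 32 of 88 genes below 0, and 0 of them fell, against 0.094% of all genes. Without WT rTreg replicate 2 it was -0.59 with 87 of 88 below 0, and 32 of them fell, against 15.9% of all genes. Across genes, deviations in WT rTreg replicate 1 ran against transcript length (Spearman rho -0.45 over 10037 genes, which share a library), and the part of length in the result was not tested.

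**Figure D5:**
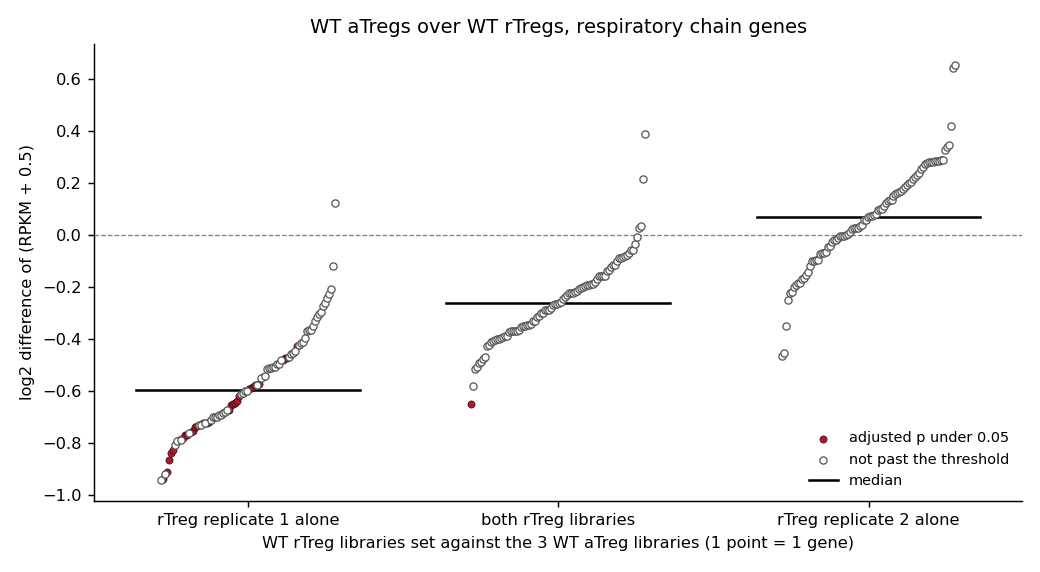
Log2 differences of WT aTregs against WT rTregs for the 88 genes, with rTreg replicate 1 alone, both rTreg libraries or rTreg replicate 2 alone set against the 3 aTreg libraries. Each point is a gene, filled where limma gave an adjusted p under 0.05, and the bar is the median, which is -0.26 with all libraries, 0.07 without rTreg replicate 1 and -0.59 without rTreg replicate 2.

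In cells labelled p65-deficient, 0 of 88 genes passed between aTregs and rTregs in limma, where 2.79% of all genes rose and 0.385% fell. The median log2 difference was -0.28, and 2 of the genes had an unadjusted p under 0.05, both lower, against 9.49% of all genes on the lower and 12.4% on the higher side. An aTreg library decided this value: without aTreg replicate 1 the median was -0.03, and without aTreg replicate 2 it was -0.52. Atp5g3, for example, was 167 and 355 RPKM in these aTregs against 288 and 332 RPKM in the rTregs, so the aTreg pair spanned the rTreg pair. In c-Rel-deficient cells 0 of 88 passed, and 0% of all genes passed. At an unadjusted p under 0.05 there were 0 of the 88, against 3.61% of all genes on the lower and 10.4% on the higher side. The median there was -0.09, and -0.05 over all genes. The aTreg against rTreg difference itself was compared between genotypes as an interaction in limma. With p65 loss 0 of 88 genes passed and the median was -0.01. With c-Rel loss 0 passed, while 78 of 88 lay above 0 with a median of 0.18 (smallest adjusted p = 0.898). The share of all genes above 0 in this interaction is not given here. Over all genes 0% passed either interaction. At an unadjusted p under 0.05 both also gave 0 of the 88, against 1.23% of all genes higher and 0.995% lower for p65 and 2.3% higher and 2.36% lower for c-Rel. The WT libraries enter both interactions. Without WT rTreg replicate 1 the median of the c-Rel interaction was -0.16, with 70 of 88 genes below 0.

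Loss of p65 or c-Rel was last compared with WT within each subset. Rela does not check the p65 label, because its whole-gene RPKM was 46.8 and 56.1 in aTregs labelled p65-deficient and 68.3, 62.3 and 64.2 in WT aTregs, and 69.4 and 59.9 against 71.5 and 69.0 in rTregs. Rel was 1.56 and 3.01 RPKM in c-Rel-deficient and 18.6, 21.3 and 22.0 RPKM in WT aTregs, and 5.37 and 1.39 RPKM against 10.9 and 20.5 RPKM in rTregs. In all 4 comparisons 0 of 88 respiratory chain genes and 0% of all genes passed in limma. Rel itself thus did not pass with c-Rel loss, although its libraries did not overlap with WT in either subset. A count of 0 in this fit therefore does not exclude differences in these genes. The authors' deposited table also called 0 of the 88. That table calls 0.0674% of all its genes higher and 0.128% lower for p65 loss in aTregs, 0.398% higher and 0.121% lower for c-Rel loss in aTregs, 0.0337% higher and 0% lower for p65 loss in rTregs and 0.0135% higher and 0.0135% lower for c-Rel loss in rTregs. At an unadjusted p under 0.05 there was 1 gene, Cox7a2 in c-Rel-deficient aTregs, on the higher side with 2.8% of all genes (3.93% lower). It was 75.5 and 89.0 RPKM in c-Rel-deficient and 58.6, 66.3 and 46.2 RPKM in WT aTregs (log2 difference 0.54, unadjusted p = 0.031). Median log2 differences were -0.06 for p65 loss in aTregs, 0.04 for c-Rel loss in aTregs, -0.06 for p65 loss in rTregs and -0.13 for c-Rel loss in rTregs. In rTregs both medians changed sign with WT rTreg replicate 1 left out, to 0.28 for p65 loss and 0.23 for c-Rel loss. In aTregs the median for p65 loss was 0.18 without replicate 1 of the cells labelled p65-deficient, and that for c-Rel loss was -0.01 without WT replicate 2. Cox7a2l, the gene that rose with PTXF, was 227 and 229 RPKM in aTregs labelled p65-deficient, 196 and 252 RPKM in c-Rel-deficient aTregs and 227, 166 and 308 RPKM in WT aTregs. It was 261 and 351 RPKM, 262 and 403 RPKM, and 319 and 310.2 RPKM in the same order of genotypes in rTregs, so no genotype lay apart in either subset.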

How the data were processed

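RNA was prepared with Qiagen RNeasy and a TruSeq kit that does not mark strand, per the labels' protocols. STAR, DESeq2 1.10.1 and mm10 are named in the submitters' processing notes. Each set has 1 deposited file of RPKM values. It also holds p-values and log2 fold changes for comparisons the authors made, per the file headers. How the sorted values were adjusted is not given in the sources used here. In the sorted set 15883 values are equal between the 26 pairs of libraries that share a replicate number and 0 between the 52 pairs that do not. Between 9469 and 9751 genes reached 1 RPKM in stimulated and between 9765 and 10317 in sorted libraries.

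Tests ran on log2(RPKM + 0.5), with negative RPKM taken as 0, a scale that understates changes of low genes. Genes that reached 1 RPKM in 2 or more libraries of their set entered limma 3.58.1 (R 4.3.3, eBayes with trend, two-sided, all groups of a set in 1 fit) with Benjamini-Hochberg adjustment over all genes tested and a threshold of 0.05. Deposited p-values were adjusted likewise. The procedure was tested on simulated data. Near-identical copies were found with blastn 2.17.0 (at least 95% identity over 70% of the coding sequence). Promoters and transcript lengths came from RefSeq (GRCm38.p6). Tables were read with pandas 2.3.3, and figures drawn with matplotlib 3.10.9.

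The members and lists were chosen with earlier results of these data known. Named by rule were 25 genes and the 5 largest rises and falls of each comparison; other genes given as examples, such as Ndufaf2, Ndufaf3, Ndufa1 and Uqcrh and the genes of the other lists, were chosen after their values were seen. Each library was left out in turn, and the fits were repeated with a replicate block, with only the groups compared, with robust variance, with median-of-ratios scaling, with a filter of 3 RPKM or none, and with 0.1 or 1 added before the log.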

Additional observations from a re-analysis of the deposited data

How the results depend on the processing

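Between pentoxifylline and water 48 genes fell and 3 rose. As single libraries were left out the falls ranged from 18 to 59 and the rises from 1 to 3, with 1 rise without water replicate 1 and without PTXF replicate 1. Between pentoxifylline and c-Rel loss 55 were lower and 1 higher. These ranged from 30 to 60 and from 1 to 2, and 2 were higher with no filter and with the replicate block. In WT aTregs against rTregs 1 gene fell, against 2 with the replicate block, 0 with only the groups compared, 0 without WT rTreg replicate 1 and aTreg replicate 1 labelled p65-deficient (a setting chosen after seeing the data), and 0 to 32 without single libraries. The median of c-Rel-deficient aTregs against rTregs was -0.16 with the replicate block and from -0.148 to -0.0316 without single libraries. That of c-Rel loss in rTregs ranged from -0.42 to 0.23. The cause of these changes was not tested. The replicate block changed no other count of calls by over 1.5 times. With it 51 genes fell and 3 rose between pentoxifylline and water. Shares of all genes tested are given above only for some fits without a single library. The other counts of this section can therefore not be set against all genes. Deviations of same-numbered libraries correlated at 0.40 between pentoxifylline and water, at 0.12 between pentoxifylline and c-Rel-deficient and at -0.07 between c-Rel-deficient and water libraries, and between -0.49 and 0.44 in 26 sorted pairs. The numbers were not used as pairs because no label ties them to a shared animal or day and the correlations do not all exceed 0.1, although Xist in the stimulated WT libraries and equal values in the sorted set follow the number. Of 37 calls of named genes, 42 checks with 1 or more libraries left out lost the threshold and 188 kept it. Under other settings 7 checks lost it and 289 kept it. Depth limits the low genes, and that of the sorted libraries is unknown.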
